A study of Cerrena unicolor with 12 samples.

Results

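Fructose cultures were set against glucose cultures of the white rot fungus Cerrena unicolor at cultivation day 10 (Cd-10). The comparison used 6 of the 12 RNA-seq libraries of the series, namely those whose labels name day 10, with 3 replicate cultures on fructose and 3 on glucose. All of them came from hyphae of the wild-type (WT) strain 87613, grown in potato dextrose medium whose carbon source was either fructose or glucose, and shaken at 200 rpm and 30 °C. The remaining 6 libraries, 3 per sugar, came from day 6 (Cd-6) of the same kind of culture. The hyphal label could not be checked against marker genes, since the gene IDs carry no annotation in the files. Laccase genes, the interest of the study, were not analysed here because no source pairs them with an ID.

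As background, fructose and glucose are both hexoses that a fungal cell takes up through sugar transporters and phosphorylates with hexokinase before glycolysis. Glucose is also the classical repressing sugar of fungi, which in its presence shut off many genes for the use of other carbon sources. Glutathione, on which the study centred, is a tripeptide that serves as the main thiol buffer of the cell and is kept reduced at the expense of NADPH.

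The deposited values were normalized read counts per gene, without correction for gene length, and the authors had scaled each sugar apart. They were therefore rescaled over the 6 libraries by median-ratio factors, and every value below for Cd-10 alone is on that scale. Whole reads could be recovered, where a read stands for a read pair counted once. They numbered 10279983 to 11893466 per fructose library and 10315866 to 11996087 per glucose library. Of 11281 genes in the table, 10093 passed a filter on low values (3 or more libraries with a value of 10 or above) and were tested. Replicates were not alike in spread. The third fructose library was the farthest from its group's median in 45.4% of the genes and the third glucose library in 56.5%. On the second principal axis (25.1% of the variance) the third glucose library lay at -27.7 against 26.4 and 21.9 for the other glucose libraries. The first axis (41.4%) held the fructose libraries at 13.4, 15.6 and 43.2 and the glucose libraries at -18.8, -18.1 and -35.3.

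The question was which genes differed between the sugars at the late time point. On fructose, 53 genes were higher (0.525% of the genes tested) and 89 were lower (0.882%) than on glucose, 142 in all (1.41%), at an adjusted p below 0.05 in limma with Benjamini-Hochberg adjustment over all genes tested. By the study's own threshold of at least a 2-fold change and an unadjusted p under 0.001, there were 134 genes (1.33%), of which 61 were higher and 73 lower on fructose. Without adjustment, 2234 genes (22.1%) had a limma p under 0.05, and in 2970 genes (29.4%) the values of the groups did not overlap. The median absolute log2 fold change over all genes was 0.28, beside a median standard deviation between replicates of 0.25 on fructose and 0.23 on glucose.

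The higher set was smaller but changed more. Its log2 fold changes ran from 0.88 to 4.61 with a median of 1.64, and 49 of the 53 genes changed at least 2-fold. It took 1.20%, 1.26% and 1.22% of all reads in the fructose libraries, against 0.416%, 0.476% and 0.418% in the glucose libraries. The lower set ran from -2.34 to -0.77 with a median of -1.17, and 64 of its 89 genes changed at least 2-fold. Its share was 0.826%, 0.708% and 0.668% on fructose, against 1.69%, 1.62% and 1.59% on glucose. These shares describe genes that were chosen by the same values. By level, 13 of 2723 genes with a mean under 100 were called (0.477%), 69 of 4876 between 100 and 1000 (1.42%), 59 of 2347 between 1000 and 10000 (2.51%) and 1 of 147 above (0.68%).

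The balance of directions depended on the scaling and the number of calls on the libraries. With the TMM scaling of edgeR, 52 genes were higher and 88 lower on fructose, close to the main fit, and with equal sums per library 56 and 63. On the values as deposited, where the median log2 fold change of all genes was -0.15 and not 0, 61 genes were higher and 366 lower on fructose (4.24% of the genes tested there). Without the third glucose library, 120 genes were higher and 228 lower, and 131 of the 142 calls were kept. Leaving out the first, the second or the third fructose library left 59, 58 or 43 calls, and leaving out the first or the second glucose library left 15 or 16. The signs were steadier than the counts, since all called genes that could be tested kept their sign in each of these fits.

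**Figure D1:**
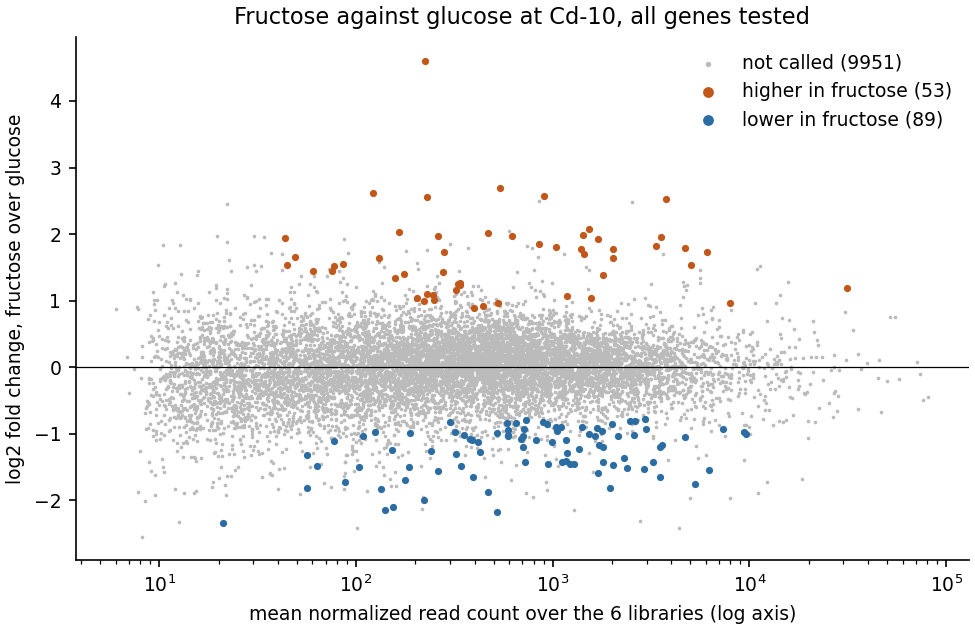
Log2 fold change of fructose over glucose at Cd-10 (vertical axis) against the mean normalized read count over the 6 libraries (log axis) for the 10093 genes tested. The 53 genes called higher on fructose (orange) reach 4.61, whereas the 89 called lower (blue) reach -2.34 and are spread mostly over the middle and high counts.

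Among genes in no pathway list, A01090 rose the most. Its values on fructose were 337, 729.9 and 232, against 10.4, 16.1 and 19.3 on glucose. Every fructose library exceeded every glucose library by more than 10-fold, although the fructose libraries also differed 3-fold among themselves. The mean was 433 ± 262 on fructose and 15.3 ± 4.52 on glucose (SD, n = 3 each), a log2 fold change of 4.61 ± 0.42 (SE) with a limma adjusted p of 0.0023.

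The next of the called genes was A02799, whose replicates were close together. It stood at 937, 1013 and 853 on fructose, against 121, 138 and 179 on glucose. The groups lay far apart, and the log2 fold change was 2.69 ± 0.19 (limma adjusted p = 0.0010). Both of these genes kept their call whichever library was left out, with limma adjusted p-values between 0.0044 and 0.022 for A01090 and up to 0.010 for A02799.

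A05221 fell the most of the genes in no list that were called and had a mean of at least 100. Its values were 265, 199 and 118 on fructose, against 807, 687 and 1036 on glucose. No fructose library came near the lowest glucose library, and the log2 fold change was -2.17 ± 0.29 (limma adjusted p = 0.018). Without the first or the second glucose library the adjusted p was 0.074 or 0.059 at a fold change of the same size.

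A02298 followed, with 63.4, 70.2 and 28.3 on fructose, against 232, 257 and 195 on glucose. The third fructose library was the lowest of all, and the groups did not overlap (log2 fold change -2.15 ± 0.34, limma adjusted p = 0.031). Its call was lost without the first glucose (adjusted p = 0.14), the second glucose (0.11) or the first fructose library (0.055) in the limma fit. None of these 4 genes has a product or a pathway in the sources used here.

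**Figure D2:**
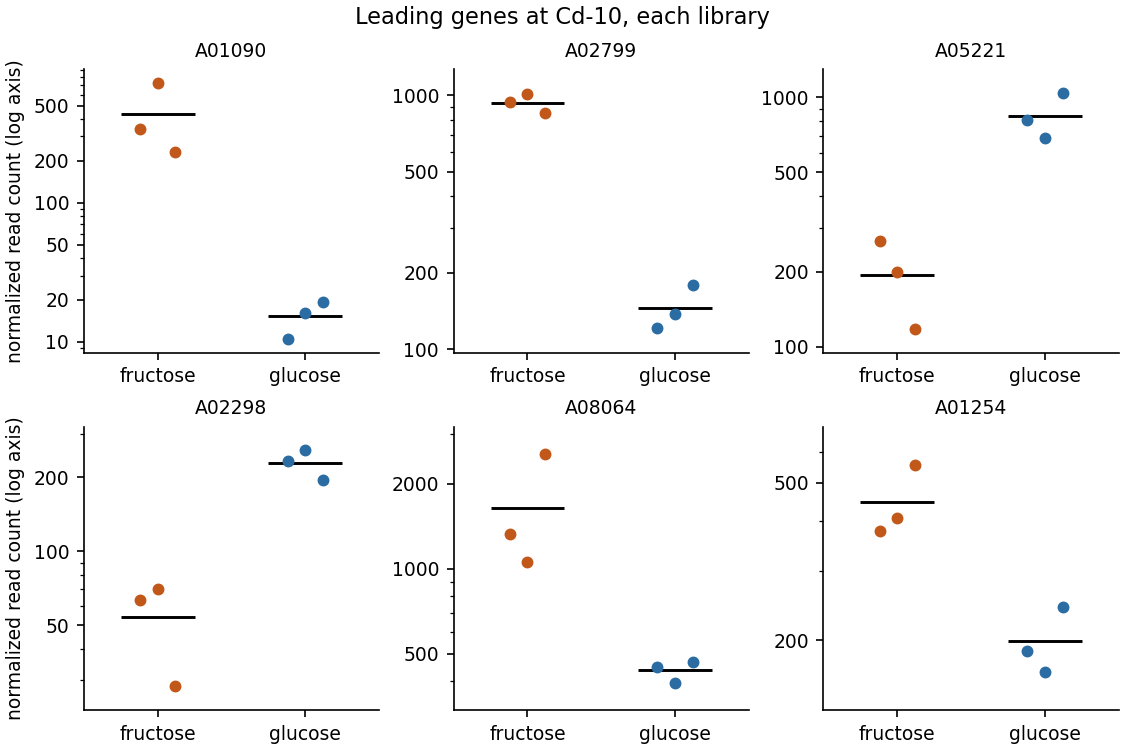
Normalized read counts (log axis) in each of the 6 Cd-10 libraries, as points with the group mean as a bar, fructose left and glucose right. A01090 and A02799 are higher and A05221 and A02298 lower on fructose, followed by the listed genes A08064 and A01254, and in all 6 panels the groups are separate.

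From the study's 10 KEGG pathway lists 91 genes were analysed, all of them chosen because they differed between Cd-6 and Cd-10 on glucose. Since the 3 glucose Cd-10 libraries entered that choice, the lists are not independent evidence of any direction here. All 91 genes were tested. Of them 2 were called higher on fructose and 0 lower, against 1.41% called over all genes. Their log2 fold changes were split evenly, with 45 positive and 46 negative and a median of -0.01. This pool mixes genes chosen for a fall between the days on glucose with genes chosen for a rise. Its even split therefore does not show that the listed genes lacked a direction. Unadjusted, 34 had a limma p under 0.05 (18 higher, 16 lower), beside 22.1% of all genes, and in 31 the groups did not overlap, beside 29.4% of all genes. On recovered reads edgeR called the same numbers of listed genes, 2 higher and 0 lower, whereas DESeq2, which called 829 of all genes (8.22%), called 10 higher and 8 lower.

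A08064, listed under biosynthesis of amino acids and of secondary metabolites, had the larger difference of the 2 called listed genes. It had 1328, 1060.3 and 2548 normalized reads on fructose, against 449, 396 and 467 on glucose. The third fructose library was more than 2-fold above the second, yet all lay well above the glucose libraries. The means were 1645 ± 793 and 437 ± 37.2 (SD, n = 3 each), 3.5-fold higher on fructose (log2 1.81 ± 0.29, limma adjusted p = 0.032). The call did not hold without the first glucose (adjusted p = 0.13), second glucose (0.11) or first fructose library (0.062) in limma.

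The other call was A01254, which is listed under both cell cycle and meiosis. Its values were 379, 407 and 556 on fructose, against 188, 167 and 243 on glucose. The groups did not overlap, and the mean was 2.23-fold higher on fructose (log2 1.16 ± 0.21, limma adjusted p = 0.044). This call was close to the threshold, and it held only without the third glucose library (adjusted p = 0.021). Without any of the other 5 libraries the limma adjusted p lay between 0.072 and 0.17, with a log2 fold change of at least 0.99.

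Cell cycle and meiosis genes, which the study lists by their yeast pathways, leaned towards fructose. Of 13 cell cycle genes, 11 had a positive and 2 a negative log2 fold change, with a median of 0.50. The study had chosen exactly these 11 for a fall between the days on glucose, and these 2 for a rise. Of 9 meiosis genes, 8 of which are also cell cycle genes, 7 were positive and 2 negative, with a median of 0.55. The remaining meiosis gene, A07141, was chosen for a fall but was negative (-0.36). Since the choice used the same glucose Cd-10 libraries, the lean cannot be told apart from it. The genes tested as a whole were not chosen in this way. The median over all genes tested was 0.00, and their 5th and 95th percentiles were -0.86 and 0.73. A01254 was the 1 gene of these lists that limma called higher, and 0 were called lower. Unadjusted, 7 cell cycle and 5 meiosis genes were higher at a limma p under 0.05, A01254 among them, beside 10.8% of all genes, and 2 and 1 were lower, beside 11.3%. On recovered reads edgeR called 1 higher and 0 lower in each list, and DESeq2, with 8.22% of all genes called, called 4 higher and 1 lower in each.

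A06177, for example, had 72.8, 56.8 and 70.2 on fructose, against 23.7, 29.0 and 38.7 on glucose. Its groups were apart, but the log2 value of 1.12 ± 0.28 missed the threshold (limma adjusted p = 0.081, and 0.047 without the third glucose library). A06480 was uneven on fructose, with 90.5, 150.7 and 230.03, against 85.2, 67.7 and 71.2 on glucose (log2 0.97 ± 0.33, limma adjusted p = 0.15). A02702 stood at 340.1, 467 and 568 on fructose, against 279, 239 and 269.7 on glucose (log2 0.77 ± 0.21, limma adjusted p = 0.091). The third fructose library was the highest in both. In the other direction, A02602 averaged 634 on fructose and 985 on glucose (log2 -0.63 ± 0.15, limma adjusted p = 0.073, and 0.047 without the third glucose library). On the values as deposited the list medians were 0.34 for cell cycle and 0.40 for meiosis.

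Starch and sucrose metabolism, the pathway of storage and structural glucans and of the enzymes that release hexoses from them, leaned the other way. Of its 14 genes, 2 had a positive and 12 a negative log2 fold change, with a median of -0.55. All of the 12 but A09661 had been chosen by the study for a rise between the days on glucose. A01410 was also chosen for a rise and stood at 0.02. Since the choice used the same glucose Cd-10 libraries, the lean cannot be told apart from it. Limma called 0 at the adjusted threshold and 5 at an unadjusted p under 0.05, all lower. All genes, of which 11.3% were lower at that p, were not chosen in this way. On recovered reads edgeR called 0 and DESeq2 called 4, all lower, beside the 8.22% of all genes that it called in either direction. The lowest adjusted p in the list was that of A00980, which is also a secondary metabolite gene. It had 914, 1326 and 892 on fructose, against 1878, 1855 and 2026 on glucose. The groups were clearly separate, and the log2 fold change was -0.90 ± 0.18 (limma adjusted p = 0.051, and 0.033 without the second fructose library).

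The list's largest negative values came with uneven glucose libraries. A07489 had 197, 132 and 175 on fructose, against 509, 181 and 1534 on glucose, so that the groups overlapped (log2 -1.65 ± 0.63, limma adjusted p = 0.18). A01792 had 368, 362 and 330.4, against 590.5, 386 and 1732 (log2 -1.05 ± 0.46, limma adjusted p = 0.22). In both genes the third glucose library was about 3-fold above the next, and when each library was left out in turn the list median ran from -0.65 to -0.17.

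The lists of central carbon metabolism had medians between -0.12 and 0.18. Carbon metabolism (28 genes) had 13 positive and 15 negative values and a median of -0.12, glyoxylate and dicarboxylate metabolism (10 genes) 5 and 5 with a median of 0.03, and pyruvate metabolism (13 genes) 9 and 4 with a median of 0.11. The citrate cycle, which oxidizes acetyl units in the mitochondrion, had 7 positive and 2 negative of 9 genes and a median of 0.18. Of the 34 genes in these lists limma called 0 at the adjusted threshold. At an unadjusted limma p under 0.05 there were 5 in each direction, beside 10.8% of all genes higher and 11.3% lower. On recovered reads edgeR called 0, and DESeq2 called 2 higher and 2 lower, beside 8.22% of all genes called in either direction. On the values as deposited, the medians of the pyruvate and the glyoxylate list were -0.04 and -0.12, so that no direction holds for either, and without 1 library the carbon median ranged from -0.20 to 0.09.

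A05242 of the citrate cycle had 5784, 9045 and 7594 on fructose, against 4654, 4779 and 4420 on glucose. The fructose libraries were all higher, and the log2 value was 0.67 ± 0.19 (limma adjusted p = 0.097). A03683, a carbon and pyruvate gene with very many reads, had 40904, 94349 and 64031 on fructose, against 43039, 36454 and 32737 on glucose. There the first fructose library fell among the glucose values (log2 0.76 ± 0.31, limma adjusted p = 0.20). A03460, also a pyruvate gene, had 562, 757.8 and 279 on fructose, against 161, 205 and 339 on glucose, with overlapping groups (log2 1.13 ± 0.39, limma adjusted p = 0.15).

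On the lower side, A04617 of the carbon and pyruvate lists had 261, 316 and 156 on fructose, against 407, 396 and 450 on glucose (rounded means 244 and 417). The groups were separate, with a log2 value of -0.83 ± 0.25 (limma adjusted p = 0.12). A05257 of the carbon and glyoxylate lists had 475, 391 and 405, against 717, 499.9 and 1038 (log2 -0.77 ± 0.25, limma adjusted p = 0.14).

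Biosynthetic lists held no common direction. Biosynthesis of secondary metabolites (49 genes) had 20 positive and 29 negative values with a median of -0.15, and biosynthesis of amino acids (12 genes) 7 and 5 with a median of 0.12, which was -0.04 on the values as deposited. After A08064, the amino acid gene with the largest difference was A00758. It had 263, 244 and 207 on fructose, against 143, 121 and 138 on glucose. The groups were apart and the replicates close, and the log2 value of 0.82 ± 0.18 had a limma adjusted p of 0.061. The largest negative value of the secondary metabolite list, -1.92 ± 0.43 in A09123, rested on low counts of 5.20, 8.26 and 12.7 on fructose, against 40.7, 24.7 and 38.7 on glucose (limma adjusted p = 0.063).

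**Figure D3:**
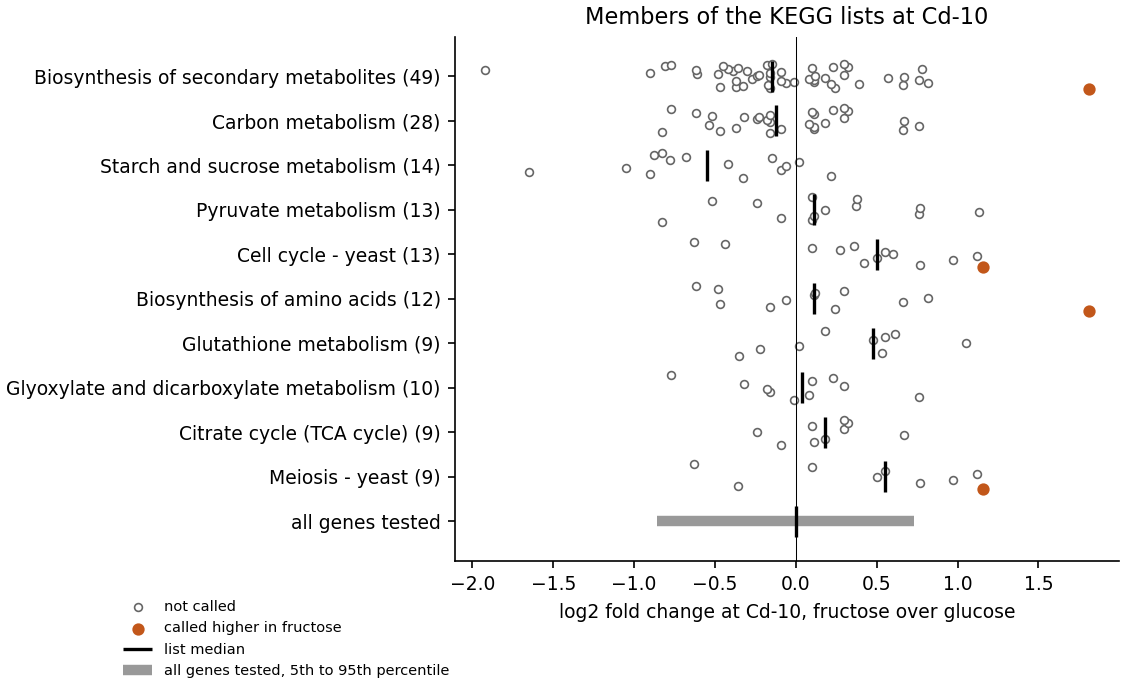
Log2 fold change of fructose over glucose at Cd-10 for each member of the 10 KEGG lists, with the list median as a vertical bar and the number of members in brackets. Filled points mark the called genes A08064 and A01254, each drawn in the lists that hold it, and the grey bar marks the 5th to 95th percentile of all genes tested, from -0.86 to 0.73.

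Glutathione genes were the centre of the study. Of those it pairs with a product 10 were analysed, and none was called between the sugars at Cd-10. Of these 10, 8 had a positive and 2 a negative log2 fold change, with a median of 0.50, and 4 were higher on fructose at an unadjusted limma p under 0.05, beside 10.8% of all genes. The lowest adjusted p among them was 0.13 in limma. On recovered reads edgeR called 0 of the 10 and DESeq2 called 1, A07600, as higher (adjusted p = 0.042).

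No difference in the steps of synthesis was detectable at this depth and replication. γ-Glutamylcysteine, the product name given for A03741, is the dipeptide precursor of glutathione. Its gene had 1323, 1307 and 1427 on fructose, against 1434, 1184 and 1001 on glucose. The first glucose library exceeded all fructose libraries, and the log2 fold change was 0.18 (95% interval -0.19 to 0.55). Glutathione synthetase (A09094), which adds glycine to that precursor, had 196, 238 and 214 on fructose, against 262, 160.2 and 227 on glucose. The ranges were nested, and the log2 fold change was 0.02 (95% interval -0.47 to 0.52).

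Genes around the reduction of thiols were more uneven. A pair of genes carry the product name trypanothione reductase, an enzyme known from trypanosomatids that reduces a glutathione conjugate. A07600 had 1040.03, 1451 and 796 on fructose, against 372, 428 and 843 on glucose. The third glucose library lay above the third fructose library, and the log2 value of 1.05 ± 0.33 was not called (limma adjusted p = 0.13). A00119 had 463, 520.3 and 506 on fructose, against 280.1, 243 and 502 on glucose, where again the third glucose library stood with the fructose values (log2 0.61 ± 0.26, limma adjusted p = 0.21). Without the third glucose library both were called higher on fructose, A07600 at a log2 value of 1.41 and A00119 at 0.92 (limma adjusted p = 0.027 for each).

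Glutathione S-transferases, which conjugate glutathione to electrophiles, did not share a direction. A09881 had 839, 859.97 and 561 on fructose, against 459, 463 and 629.9 on glucose (log2 0.53 ± 0.21). A04373 had 1515, 759.8 and 1592, against 1142, 833 and 536 (log2 0.61 ± 0.34), and A01960 had 211, 259 and 265, against 168, 139.8 and 228 (log2 0.48 ± 0.22). In each of these 3 the groups overlapped. A00358, in contrast, had 88.4, 130.08 and 124 on fructose, against 159.9, 130.09 and 143 on glucose (log2 -0.35 ± 0.22). A04379, the most uneven of the 5 on fructose, had 5581, 8519.2 and 3310.1 there, against 5325, 6078 and 7605 on glucose (log2 -0.22 ± 0.32). Limma adjusted p-values of the 5 transferases were 0.19 to 0.72. The aminopeptidase A04614, which trims residues from the ends of peptides, was the only product gene whose fructose libraries all lay above the glucose libraries, with 461, 368 and 429.9 against 222, 289 and 361 (log2 0.55 ± 0.21, limma adjusted p = 0.18).

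**Figure D4:**
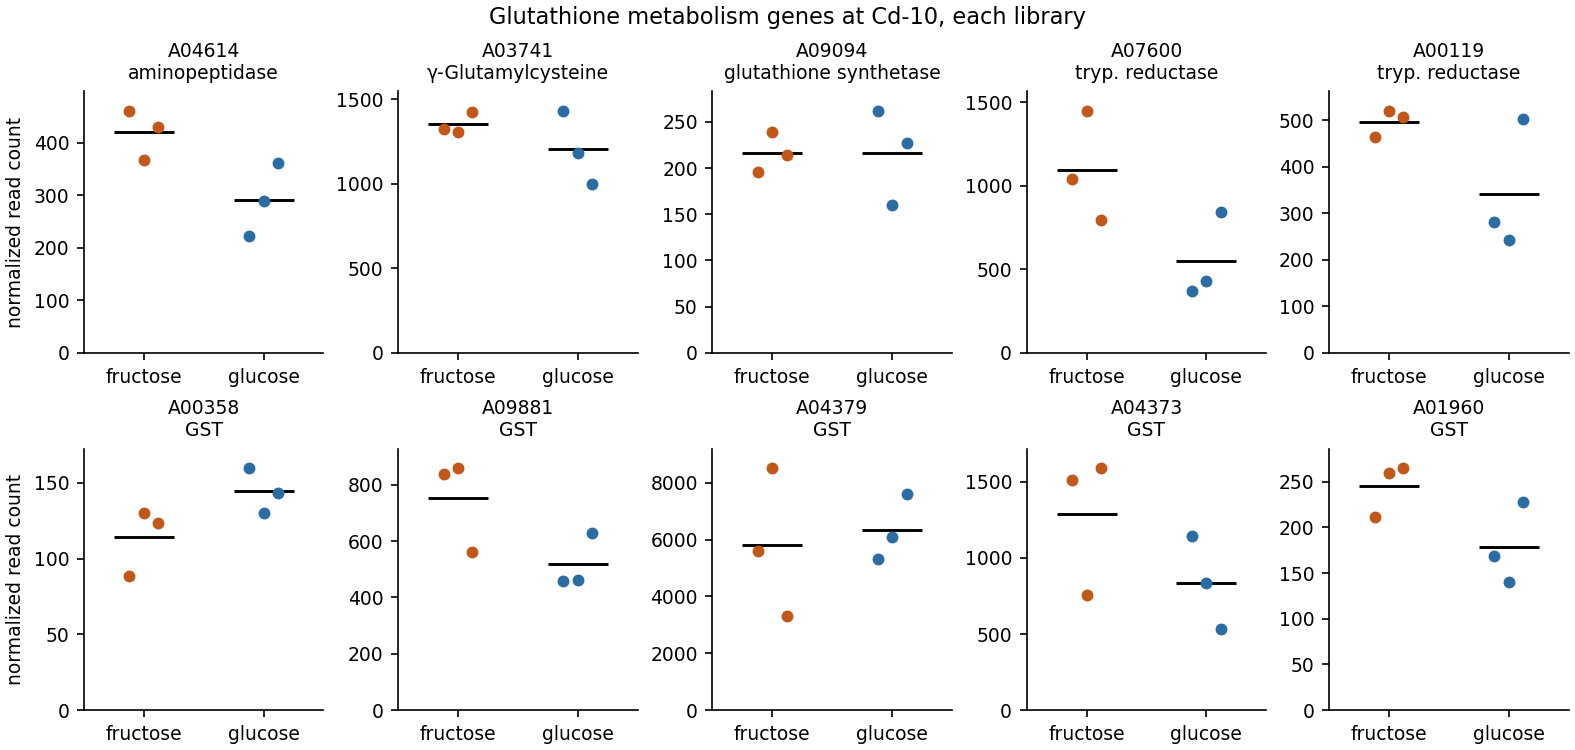
Normalized read counts (vertical axes from 0) of the 10 glutathione genes in each Cd-10 library, as points with the group mean as a bar, fructose left and glucose right (GST, glutathione S-transferase; tryp. reductase, trypanothione reductase). The groups overlap in all panels but A04614, where fructose is higher, and A00358, where it is lower and the closest libraries (130.08 and 130.09) touch.

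A further question was whether the sugars differed at Cd-10 as they had at Cd-6. In a fit of all 12 libraries, 1072 of 10387 genes (10.3%) were called between the sugars at Cd-6, 5.3% higher and 5.03% lower on fructose, and in the same fit 347 (3.34%) at Cd-10. Cd-6 and interaction values come from that fit, and Cd-10 differences from the fit of 6 libraries. The Cd-6 count was 292 without the first fructose Cd-6 library and 1753 without the first glucose Cd-6 library. Of the 53 genes higher on fructose at Cd-10, 33 had a positive difference at Cd-6 too (62.3%, beside 50.3% of all genes) and 8 were called higher there (15.1%, beside 5.4%). Of the 89 genes lower on fructose, 45 had a negative difference at Cd-6 (50.6%, beside 49.7%) and 23 were called lower there (25.8%, beside 5.12%). Called the opposite way at Cd-6 were 1 of the 53 and 8 of the 89.

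The difference between the days was itself tested as a sugar by day interaction, which was called in 485 genes (4.67%), 190 of them positive (1.83%) and 295 negative (2.84%). A positive value means that the fructose over glucose difference was larger at Cd-10 than at Cd-6. With the TMM scaling of edgeR 194 genes were positive and 286 negative, and on the values as deposited 183 and 315. When all libraries were scaled to equal sums, the median of this value over all genes was 0.30, and 527 genes were positive and 216 negative. The split between directions was thus reversed under equal sums, but not under the other scalings. Leaving out 1 library gave 92 to 1075 calls, the lowest without the first fructose Cd-6 library and the highest without the first glucose Cd-6 library. It stayed nearest to 485 without the first fructose (338) or the third glucose Cd-10 library (571). Of the 53 higher genes 25 had a called interaction, all positive, and of the 89 lower genes 42, of which 41 were negative. These genes were chosen by the Cd-10 values that also enter the interaction.

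A05221 was lower on fructose on both days. At Cd-6 it had 47.8, 150.4 and 80.5 on fructose, against 598, 532.9 and 496 on glucose (log2 -2.68, limma adjusted p = 0.0010). Its interaction was 0.50 (limma adjusted p = 0.60). A01090 was different. On the scale of all 12 libraries its values at Cd-6 were 3.26, 21.0 and 11.1 on fructose, against 9.93, 54.8 and 75.97 on glucose, and at Cd-10 they were 334, 729 and 230.03 on fructose, against 10.4, 16.1 and 19.7 on glucose. It was thus high only in the 3 fructose Cd-10 libraries, and its interaction was 6.38 ± 1.02 (limma adjusted p = 0.0077).

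Of the 91 listed genes 7 had a called interaction, beside 4.67% of all genes, and 4 of them were cell cycle genes. A01254 at Cd-6 had 426, 480 and 327 on fructose, against 541.1, 836 and 634 on glucose, and at Cd-10 it had 375, 406 and 551 on fructose, against 188, 166 and 248 on glucose. The glucose libraries were the higher ones at Cd-6 and the lower ones at Cd-10, while the fructose libraries covered a similar range on both days (interaction 1.84 ± 0.32, limma adjusted p = 0.011). A02702 (1.42, limma adjusted p = 0.027) and A06548 (0.95, limma adjusted p = 0.040) had the same order of groups, and A01728 had the reverse order (-1.18, limma adjusted p = 0.017). The call of A01254 held whichever library was left out. That of A02702 was lost without any of 7 of the 12 libraries, that of A06548 held only without the first glucose Cd-6 library (limma adjusted p = 0.031), and that of A01728 was lost without the second glucose Cd-10 (0.056) or the first fructose Cd-6 library (0.066). Across the 13 cell cycle genes, the median log2 change of Cd-10 over Cd-6 was -0.09 on fructose and -1.20 on glucose. The list had been chosen on the glucose change, and these day comparisons share their Cd-10 libraries with the sugar comparison.

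A pair of listed genes differed between the sugars at Cd-6 and overlapped at Cd-10. A01410, a starch and sucrose gene, had 168.3, 168.1 and 199 on fructose at Cd-6, against 1374, 3378 and 1021 on glucose. At Cd-10 it had 6506, 7074 and 7270.1 on fructose, against 6610.5, 5252 and 9632 on glucose. The sugars were far apart at Cd-6 (log2 -3.23, limma adjusted p = 4.2e-04) and overlapped at Cd-10 (log2 0.02, 95% interval -0.47 to 0.51). A00533, of the carbon, glyoxylate and secondary metabolite lists, showed the same order. It had 198, 553 and 301 on fructose at Cd-6, against 3819, 7627 and 2753 on glucose, and 29672, 42553 and 55461 on fructose at Cd-10, against 46687, 38485 and 55971 on glucose. Its log2 difference between the sugars was -3.75 at Cd-6 (limma adjusted p = 4.2e-04) and -0.16 at Cd-10 (95% interval -0.77 to 0.45).

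**Figure D5:**
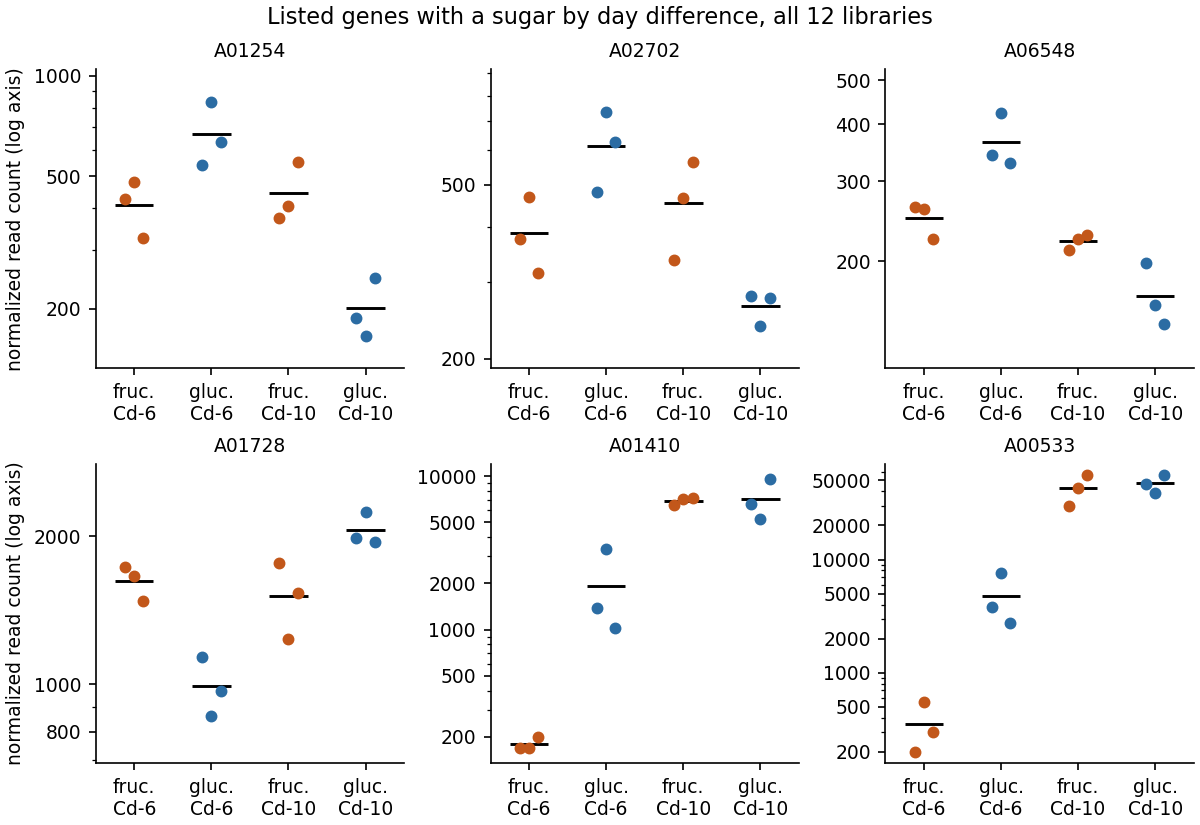
Normalized read counts (log axes, scaled over all 12 libraries) of 6 listed genes with a called sugar by day interaction, as points with the group mean as a bar, at Cd-6 and then Cd-10 with fructose left of glucose. In A01254, A02702 and A06548 glucose is higher at Cd-6 and lower at Cd-10, in A01728 the reverse holds, and in A01410 and A00533 the sugars are apart at Cd-6 and overlap at Cd-10.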

How the data were processed

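RNA from 3 replicate cultures per sugar and day was sequenced from NEBNext Ultra libraries. Per the study's methods and the labels, reads were mapped with HISAT2 and counted with featureCounts (the labels also name Cufflinks), without pooling. What the authors deposited is a signal for each gene: a read count divided by the size factor of its library. In each of the 12 libraries every value (100%) was a whole multiple of 1 step, within a tolerance of 0.01. Median-ratio factors computed within each sugar from the recovered counts gave back those steps, so the sugars had been scaled apart. The rescaling factors over the Cd-10 libraries were 0.941 to 0.961 for fructose and 1.051 to 1.071 for glucose.

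The main test was limma 3.58.1 (R 4.3.3) with a variance trend on log2(value + 1), a scale that understates the change of low genes, over the 6 libraries only, with 10093 genes (10 or more in 3 or more libraries) and Benjamini-Hochberg adjustment (called below 0.05). The Cd-6 and interaction values came from a fit of all 12 libraries. No pair of replicates was a copy of another. The tests were checked on simulated data, drawn with the same relative spread between replicates in every gene and no uneven library. That check therefore does not cover uneven replicates such as those seen here. Alternatives were other scalings, filters and pseudocounts, a replicate block, all 12 libraries, each library left out, and tests of the recovered reads with DESeq2 1.42.0 and edgeR 4.0.16. Figures were drawn with matplotlib 3.10.9 (Python 3.11.15).

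Gene IDs matched 0 entries of the reference table at hand, so products and pathways came from the study's lists, taken by their names. A gene of the lists is not reported here. Named genes were the 10 analysed with a product, the 3 members with the largest change in each of the 10 lists, the 2 largest rises and falls outside the lists (called, groups not overlapping, mean of at least 100), the 2 most positive and 2 most negative called interactions outside the lists and at most 6 inside them. A02602 and A00603 were named after their values were seen. The members, lists and rules were chosen with earlier results of these data known. Values per sample carry counting error and culture error together. The limma p-values set a difference against the spread between replicate cultures. That spread is pooled over the groups in the fit and drawn towards a variance trend over all genes.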

Additional observations from a re-analysis of the deposited data

Results flagged for a closer look

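The fructose over glucose difference at Cd-10 differed from that at Cd-6 in 485 genes by the test of the interaction itself (limma over all 12 libraries, adjusted p below 0.05). Outside the lists, the 2 most positive values were those of A01090 (6.38, limma adjusted p = 0.0077) and A06328 (3.51, limma adjusted p = 0.017). A06328 had 143, 359 and 439 on fructose at Cd-6, against 2882, 12203 and 7994 on glucose. At Cd-10 it had 8102, 7535 and 4632 on fructose, against 12783, 13621 and 13439 on glucose, so that it was the lower one on fructose on both days, by less at Cd-10.

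The 2 most negative values were those of A01313 (-6.74, limma adjusted p = 0.0025) and A08329 (-5.32, limma adjusted p = 0.0077). A01313 had 5193, 4795 and 2667 on fructose at Cd-6, against 351, 185 and 131 on glucose, and 919.5, 786 and 1777 on fructose at Cd-10, against 11440.5, 9327 and 1922 on glucose. The order of the sugars was reversed between the days, and the third glucose library at Cd-10 lay close to the fructose values. At Cd-10 alone its log2 difference of -2.42 was not called (limma adjusted p = 0.082), but it was without that library (-3.24, limma adjusted p = 0.0050). A08329 had 11465, 17182 and 1774 on fructose at Cd-6, against 552, 331 and 303 on glucose, and 226, 259 and 239.7 on fructose at Cd-10, against 695, 454 and 455 on glucose.

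Of the listed genes, A01254 (1.84), A02702 (1.42), A06548 (0.95) and A01728 (-1.18) of the cell cycle list, A01410 (3.23) of the starch and sucrose list and A00533 (3.57) of the carbon list were picked up by the same test. The calls of A01090, A06328, A01313, A08329, A01254, A01410 and A00533 held whichever library was left out. Those of A01728, A02702 and A06548 did not, as given with the cell cycle genes.

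The remaining listed gene was A00603 of the secondary metabolite list (-3.07 ± 0.76, limma adjusted p = 0.040). It had 14811, 10484 and 14045 on fructose at Cd-6, against 6433, 1042 and 3035 on glucose, and 7522, 7621 and 15277 on fructose at Cd-10, against 20791, 23521 and 9945 on glucose. The sugars were apart at Cd-6 (log2 2.25, limma adjusted p = 0.021) and overlapped at Cd-10 (log2 -0.81, limma adjusted p = 0.25). The interaction call was lost without any of 8 of the 12 libraries (limma adjusted p = 0.063 to 0.11) and in edgeR (adjusted p = 0.052).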

How the results depend on the processing

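The called genes kept their direction more firmly than their number. For the sugars at Cd-10, the 53 higher and 89 lower genes were 160 and 187 in a fit of all 12 libraries and 344 and 485 in DESeq2, while edgeR called 55 and 87, of which 137 were shared with limma. On the values as deposited 366 genes were lower. The count past the study's threshold was 306 in DESeq2. Calls at Cd-6 numbered 1650 in DESeq2, and interaction calls 743 with equal sums and 1037 in DESeq2. Listed genes called numbered 7 on the values as deposited, 4 with all 12 libraries and 18 in DESeq2. Leaving out 1 library gave 11 to 120 higher genes, 4 to 228 lower genes, 60 to 194 past the study's threshold, 0 to 5 listed genes, 292 to 1753 calls at Cd-6 and 92 to 1075 interaction calls. The cause of these shifts was not tested.

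Correlations of same-numbered deviations were -0.05, -0.11 and -0.22, and no library correlated best with its own number. Deviations within a group of 3 libraries constrain each other, so these values cannot tell whether replicate numbers pair the samples. With the replicate block, 12 genes were higher, 1 was lower, 89 passed the study's threshold and 0 listed genes were called.

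Over the genes named here, with 43 differences at Cd-10 and 11 interactions, 876 of 972 values under the alternatives kept direction and side of the threshold, 54 lost the call, 29 gained it and 13 changed sign. Sign changes occurred near 0. Glutathione synthetase A09094 was -0.13 on the values as deposited, -0.02 in edgeR, -0.01 in DESeq2 and -0.18 to 0.18 without 1 library. The transferase A04379 was -0.54 to 0.14 without 1 library. A01410 was -0.14 on the values as deposited, -0.04 in edgeR, -0.03 in DESeq2 and -0.17 to 0.24 without 1 library, and A00533 was -0.37 to 0.08 without 1 library. Of the genes with a mean under 100, 0.477% were called, and the part of depth in this was not tested.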

Other observations

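Genes called higher on fructose lay beside each other by ID number in 4 of 51 cases with a numbered ID. Of the 93 genes next to them by number, 4 were also called higher (4.30%, beside 0.586% of the 8700 numbered genes tested). For the genes called lower the figures were 2 of 82 and 1.29% of the neighbours, beside 0.943%. Whether ID numbers follow genome position is not given in the sources used here.

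A single gene had reads in all 3 fructose libraries and 0 in all 3 glucose libraries at Cd-10, with 15 reads in sum, and 7 genes had 0 on fructose and reads in all 3 glucose libraries, with at most 16 reads in sum. No gene with more than 16 reads met either condition.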
